A study of Homo sapiens with 7 samples.

Results

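HSF1, the master regulator of the heat shock response, and 9 genes of the chaperones it is known for were examined for binding of the transcription factor Myc. The 10 genes were HSF1, HSPA1A, HSPA1B, HSPA8, HSP90AA1, HSP90AB1, HSPH1, DNAJB1, HSPD1 and HSPE1, chosen by name out of 20037 protein-coding genes. A Myc peak was assigned to a gene when its summit lay inside the RefSeq span of the gene or within 20 kb of it, which gave 57 of the 47016 peaks on nuclear chromosomes. Of these 57, 31 lay nearest to a start or end of one of the 10 genes, and 26 nearest to that of another coding gene. Binding was measured by CUT&RUN, in which an antibody tethers a nuclease to chromatin and the cut fragments are sequenced. All 7 libraries came from HT29, an established human colon cancer line, and carry a label of 6 h oleic acid, a monounsaturated fatty acid, in serum-free medium. By their titles 3 were Myc libraries, 3 were IgG controls and 1 was an input, although the antibody label of the IgG libraries also names the Myc antibody. The values come from 1 list of Myc peaks with no value per library, so no spread between replicates and no effect of oleic acid could be measured. No expression was measured, so the identity of the line was not checked against marker genes.

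Heat shock proteins are chaperones that keep other proteins folded. HSP70 proteins bind unfolded stretches in a cycle driven by ATP, J-domain proteins such as DNAJB1 deliver the clients and start the hydrolysis, and HSP110 proteins such as HSPH1 exchange the nucleotide. HSP90 proteins act later, on nearly folded kinases and receptors, while HSPD1 and HSPE1 form the folding chamber of mitochondria and its lid. HSF1 binds heat shock elements, inverted repeats of GAA, and Myc with its partner MAX binds E-boxes, of which CACGTG is the canonical form.

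The strength of a peak is given as the fold enrichment that the authors' list holds for its summit, the Myc signal over the local control level. The number of Myc fragments over the summit (the pileup) and the control level behind each fold were recovered from the fold and its p-value. Each fold is printed with an exact Poisson 95% interval of the pileup, which covers counting error only, since amplified fragments without molecular identifiers are not independent molecules. Over all peaks the median fold was 4.107, the median pileup 29 and the median control level 5.92. A start is the 5′ end of a RefSeq transcript, and a start peak is the strongest peak with its summit within 1 kb of any listed start of a gene. For HSF1, whose strand was not in the table of starts, either annotated end was used.

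All 10 genes had a start peak, against 57.3% of the 20037 protein-coding genes (11490 genes, Wilson 95% interval 56.7 to 58.0). Because HSPD1 and HSPE1 share one, these were 9 distinct peaks, with a median fold of 10.6, against 7.71 over the distinct start peaks of all genes. Counted per gene, the median of the 10 was 10.9. The median over all genes with a start peak was 7.89, and the middle 50% of those genes lay between 5.57 and 11.1. Above the median stood 9 of the 10 genes, and HSPA8 lay at it. For HSF1, DNAJB1, HSP90AA1, HSP90AB1, HSPD1, HSPE1 and HSPH1 the whole interval lay above that median, and for HSPA1A, HSPA1B and HSPA8 the interval included it. Neighbours in the order of the folds had overlapping intervals, except that HSPH1 stood clear of the next. Further apart in the order, the HSPD1 and HSPE1 peak (lower bound 10.6) also lay above HSPA8 (upper bound 9.87). Of the 9 peaks, 5 also lay within 1 kb of a start or end of a coding gene outside the group. When every peak near 2 or more coding genes was left out, 6 of the 10 genes had a start peak, with a median fold of 8.30. Among all protein-coding genes 45.0% (9009) then had one, with a median of 7.39. Of these 6, only HSP90AB1 and HSPH1 had an interval wholly above either median. DNAJB1 then stood at 6.07 (4.30 to 8.34) and HSP90AA1 at 8.04 (5.97 to 10.6), intervals that include both medians. The 9 peaks were also wide, from 1298 to 3894 bp with a median of 2709 bp, against 1500 bp over the start peaks of all genes.

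**Figure D1:**
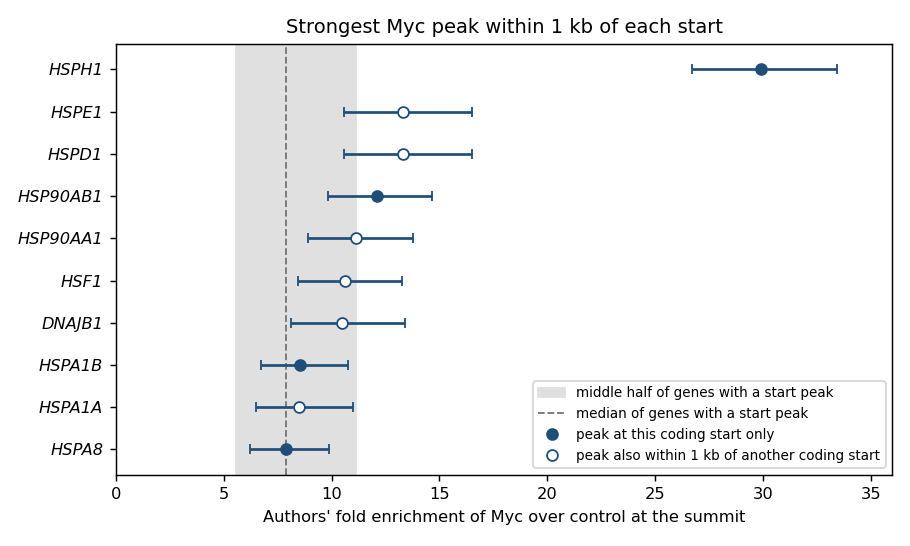
Fold enrichment (horizontal axis) of the strongest Myc peak within 1 kb of a start for each of the 10 genes, with exact Poisson 95% intervals as bars. The grey band spans the middle 50% of all genes with a start peak and the dashed line their median, and open circles are peaks that also lie within 1 kb of another coding start. HSPH1 stands at 29.9, and the others run from 7.88 to 13.3 with each interval overlapping that of its neighbour.

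HSF1, the regulator of the group, carried its strongest peak beside its lower-coordinate end. HSF1 spans 144291604 to 144314720 on chromosome 8 (GRCh38), and the summit at 144291151 lay 453 bp below that end. There 78 fragments stood over a control level of 6.43, a fold of 10.6 (8.44 to 13.2). The same summit lay 287 bp from the end of BOP1, a ribosome biogenesis gene, so the peak cannot be assigned to either gene alone. Inside HSF1 a single weak summit was listed, at 144313362, with a fold of 2.79 (1.66 to 4.43). At its higher end HSF1 overlaps DGAT1, a triglyceride synthesis gene, by 137 bp. The predicted coding gene LOC124902050 has its lower end at the same base as DGAT1. A summit inside both of these, 283 bp beyond the end of HSF1, had a fold of 2.95 (1.79 to 4.63). The remaining summits of the locus were stronger, with 5.22 (3.68 to 7.21) inside DGAT1, 9704 bp beyond HSF1, and 4.99 (3.51 to 6.88) beside the far end of DGAT1. The intervals of these 4 peaks lay below that of the peak at the lower end. The median control level over the peaks of this chromosome was 9.43, against 5.92 in the whole list, whereas the level at the HSF1 end peak, 6.43, was near the latter.

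The folds of the chaperone genes rest on 57 to 313 fragments at the summit. The lowest pileup was that of HSPA1A (57), followed by DNAJB1 (63), HSPA1B (72), HSPA8 (74), HSPD1 and HSPE1 (80), HSP90AA1 (83) and HSP90AB1 (100). HSPH1 had 313. Control levels ran from 5.09 at DNAJB1 and at the HSPD1 and HSPE1 peak, the lowest level in the list, to 9.50 at HSPH1. That lowest level is common to many peaks, being also the median over the peaks of chromosomes 14, 21 and X. HSPA8 had a pileup close to that of HSPA1B and HSF1, and its lower fold goes with the second highest control level, 8.51. Pileup and fold therefore order these genes differently.

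**Figure D2:**
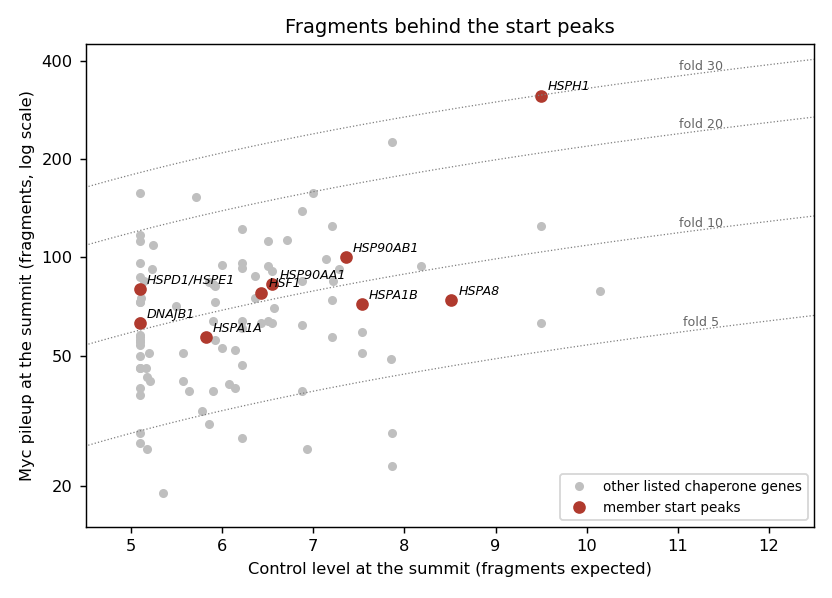
Myc pileup (vertical, log scale) against control level (horizontal) at the start peaks of the members (red, labelled) and of the other listed chaperone genes (grey), with dotted lines of equal fold. HSPH1 has both the highest pileup (313) and the highest control level (9.50) of the members.

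HSPH1, an HSP110 nucleotide exchange factor of the cytosol, had the strongest peak of the group. HSPH1 spans 31134973 to 31162388 on chromosome 13 and is read from the minus strand. Its summit, at 31162274, lay 114 bp inside the gene from the start. The fold was 29.9 (26.7 to 33.4), from 313 fragments over a control level of 9.50. It ranked 47 among the 11490 genes with a start peak and exceeded 99.9% of the peaks in the list. The lower bound of its interval, 26.7, lay above the upper bound of every other member, the highest of which was 16.5. The peak interval of 3894 bp reached 927 bp upstream of the start and 2966 bp into the gene. The control level was high relative to the whole list (93.0% of peaks had a lower one), and chromosome 13 as a whole had a median of 7.20. A start of the noncoding gene LOC105370148 lay 386 bp from the same summit, on the other strand.

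The bases upstream of the HSPH1 start are shown because they lie in the interval of the strongest peak (RefSeq, GRCh38.p14, minus strand, chr13:31162389-31162638). The summit itself lies outside them, 114 bp inside the gene. Capitals in this and the later sequences mark E-boxes and heat shock elements of the patterns described further on, and this one has none.
HSPH1: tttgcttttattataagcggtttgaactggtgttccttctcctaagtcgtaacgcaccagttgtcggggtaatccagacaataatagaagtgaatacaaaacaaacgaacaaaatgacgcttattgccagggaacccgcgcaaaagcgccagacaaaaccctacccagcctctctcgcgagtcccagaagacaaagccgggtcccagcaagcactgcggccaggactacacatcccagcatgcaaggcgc
The window of 300 bases around the start (250 before it and 50 from it on) had a GC content of 51.7%, lower than in most windows of protein-coding genes, where the median was 62.3%. It was the only one of the 15 member windows without a GC box.

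Elsewhere around HSPH1 the peaks were weaker. Upstream of the start, summits 6396 and 10094 bp away had folds of 8.93 (7.15 to 11.04) and 5.51 (4.08 to 7.29). No coding start was nearer to either than that of HSPH1. The 2 weaker summits inside the gene had folds of 2.75 (1.77 to 4.106) and 2.47 (1.56 to 3.75). The interval of the stronger upstream peak lay above both of these. A last summit, 19470 bp beyond the 3′ end, had a fold of 2.13 (1.37 to 3.17), and 0.798% of all peaks had a lower one.

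HSPD1 and HSPE1, which encode the mitochondrial chaperonin and its co-chaperonin, start 105 bp apart and are read in opposite directions. One peak covered both starts. Its summit, at 197500498 on chromosome 2, lay 119 bp downstream of the HSPE1 start and 224 bp upstream of the first HSPD1 start. The fold was 13.3 (10.6 to 16.5), above that of 95.8% of the list. It came from 80 fragments over a control level of 5.09, the lowest of the list and common to many peaks. The interval of 2819 bp ran 1003 bp into HSPE1 and 1710 bp into HSPD1. The readthrough gene HSPE1-MOB4 shares the HSPE1 start, so the peak counts for it as well. The remaining summits of the locus were at the start of the neighbour MOB4 (8.05, 6.00 to 10.6) and 18700 bp downstream of the HSPD1 start (2.63, 1.54 to 4.22).

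The bases between the 2 start sites are shown because they hold a canonical E-box in a peak of the group (plus strand, chr2:197500275-197500378, E-box in capitals).
HSPD1-HSPE1: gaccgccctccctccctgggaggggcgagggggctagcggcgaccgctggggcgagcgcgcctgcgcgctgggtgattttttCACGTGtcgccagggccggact
The E-box CACGTG began 22 bases upstream of HSPE1, at 197500357 to 197500362, which is 136 bp from the summit. The window of HSPD1 holds the same E-box, and no other member window had CACGTG. Over all 22199 start windows of protein-coding genes 8.34% had one.

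Of the cytosolic HSP90 pair, HSP90AB1, the constitutive form, had the second strongest peak at an unshared start among the members. Its summit, at 44246727 on chromosome 6, lay between its first listed start (533 bp downstream of it) and its second (374 bp upstream). The fold was 12.1 (9.86 to 14.7), from 100 fragments over 7.35. The interval of 3015 bp covered all 3 listed starts, of which the last lay 1216 bp from the summit. A further peak 8300 bp upstream of the first start had a fold of 8.53 (6.67 to 10.8) and no coding start nearer to it. The other summits of the locus had folds between 2.63 and 7.55. The highest of them lay at SLC35B2, which encodes a Golgi nucleotide sulfate transporter, and the next (7.01, 5.15 to 9.32) at NFKBIE, which encodes an inhibitor of NF-kappaB.

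HSP90AA1, the stress-inducible form, had peaks at both of its listed starts, which lie far apart in a gene of 59008 bp. At the upstream start on chromosome 14 the summit at 102139541 lay 208 bp inside the gene and 118 bp from a start of WDR20 on the other strand. Its fold was 11.1 (8.89 to 13.8). At the downstream start the summit at 102087470 lay 426 bp upstream, with a fold of 8.04 (5.97 to 10.6) from 48 fragments. The intervals of the 2 peaks overlapped. The peak interval at the downstream start ended short of it, leaving the start 260 bp outside, which was the case for no other listed start of the group. The strongest peak away from the starts was 9062 bp beyond the 3′ end, with a fold of 9.14 (7.13 to 11.55).

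Windows at the last HSP90AB1 start and the downstream HSP90AA1 start are shown because both hold a full heat shock element, the first inside a Myc interval and the second outside one (plus strand, chr6:44247693-44247942, and minus strand, chr14:102087045-102087294). Heat shock elements and E-box variants are in capitals.
HSP90AB1: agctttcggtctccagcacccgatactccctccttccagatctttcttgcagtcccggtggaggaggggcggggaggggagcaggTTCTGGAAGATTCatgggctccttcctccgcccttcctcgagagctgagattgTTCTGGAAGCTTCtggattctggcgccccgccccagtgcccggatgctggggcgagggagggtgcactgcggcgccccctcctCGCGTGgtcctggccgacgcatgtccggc
HSP90AA1: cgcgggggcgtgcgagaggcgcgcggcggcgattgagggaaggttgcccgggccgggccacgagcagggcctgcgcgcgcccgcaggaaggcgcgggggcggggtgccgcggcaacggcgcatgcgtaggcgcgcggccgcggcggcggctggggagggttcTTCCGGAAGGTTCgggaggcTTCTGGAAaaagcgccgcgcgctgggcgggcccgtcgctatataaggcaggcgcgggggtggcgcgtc
In HSP90AB1 the elements TTCTGGAAGATTC and TTCTGGAAGCTTC began 165 and 112 bases upstream of the start, and the variant E-box, CGCGTG, began 29 bases upstream. In HSP90AA1 the element TTCCGGAAGGTTC began 88 bases upstream, and a shorter match, TTCTGGAA, 68 bases upstream.

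HSPA1A and HSPA1B, the inducible HSP70 genes, encode nearly the same protein and lie 12195 bp apart on chromosome 6. Their start peaks were alike. At HSPA1A the summit at 31815253 lay 290 bp upstream of the start and 30 bp from the start of HSPA1L, a testis HSP70 gene on the other strand. The fold was 8.50 (6.48 to 10.98). At HSPA1B the summit at 31827120 lay 618 bp upstream of the start, with a fold of 8.56 (6.72 to 10.7). The intervals overlapped almost completely. The 250 bases upstream of both starts were identical at 235 of 251 aligned positions (93.6%). Both summits lie outside that stretch, and likeness at the summits was not measured. How reads that align to both copies were handled is not stated in the sources at hand.

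Both upstream stretches are shown because they belong to near-identical copies with separate peaks (plus strand, chr6:31815293-31815542 and chr6:31827488-31827737, heat shock repeat in capitals).
HSPA1A: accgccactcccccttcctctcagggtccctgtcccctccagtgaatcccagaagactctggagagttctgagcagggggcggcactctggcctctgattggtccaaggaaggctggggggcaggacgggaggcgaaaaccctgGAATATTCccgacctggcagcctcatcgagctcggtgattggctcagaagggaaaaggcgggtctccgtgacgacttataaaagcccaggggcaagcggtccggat
HSPA1B: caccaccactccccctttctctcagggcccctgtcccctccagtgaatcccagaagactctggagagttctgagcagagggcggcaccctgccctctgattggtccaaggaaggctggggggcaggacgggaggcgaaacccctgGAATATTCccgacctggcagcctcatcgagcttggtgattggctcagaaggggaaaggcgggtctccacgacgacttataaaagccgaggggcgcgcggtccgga
Each holds the 2-unit repeat GAATATTC, which began 106 bases upstream of HSPA1A and 105 bases upstream of HSPA1B. Each also holds TATAAA, beginning 30 and 29 bases upstream. No other member window had TATAAA, which 9.47% of all windows hold.

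The HSPA1A and HSPA1B neighbourhood was the densest in Myc summits. It held 13 summits in a joint window of 54712 bp, of which 32.8% lay in a peak interval. HSPA1A had 2.83 and HSPA1B 2.59 summits per 10 kb of span and flanks, more than 99.8% and 99.7% of protein-coding genes, for which the median was 0.260. Between the genes a peak of 3554 bp had its summit 5263 bp upstream of HSPA1B, with a fold of 7.89 (6.00 to 10.2), an interval that overlapped those of both start peaks. Inside HSPA1A a summit 1368 bp from the start had a fold of 3.66 (2.55 to 5.10), and no summit lay inside HSPA1B. A peak of 1556 bp did reach into HSPA1B, with its summit 11 bp beyond the 3′ end and a fold of 4.46 (3.12 to 6.18). The strongest peak of the window, 12.04 (9.65 to 14.9), lay at an end of VARS1, which encodes valyl-tRNA synthetase. HSPA1A was the only member whose start peak was not the strongest peak in its span and flanks.

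HSPA8, the constitutive HSP70 (HSC70), had the lowest start fold of the group. Its summit, at 123062375 on chromosome 11, lay 239 bp upstream of the listed start, with a fold of 7.88 (6.21 to 9.87) and a pileup of 74. The rank of HSPA8 among genes with a start peak was 5756 of 11490, near the middle. The peak was nevertheless wide, at 3696 bp, and wider than 98.6% of all peaks. The noncoding gene LOC124902775 starts 287 bp from the summit on the other strand. The 4 other summits of the locus had folds from 2.78 to 3.45, and the highest upper bound among them was 5.23.

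The HSPA8 window is shown because it holds the summit itself and a pair of full heat shock elements, in capitals (minus strand, chr11:123062137-123062386).
HSPA8: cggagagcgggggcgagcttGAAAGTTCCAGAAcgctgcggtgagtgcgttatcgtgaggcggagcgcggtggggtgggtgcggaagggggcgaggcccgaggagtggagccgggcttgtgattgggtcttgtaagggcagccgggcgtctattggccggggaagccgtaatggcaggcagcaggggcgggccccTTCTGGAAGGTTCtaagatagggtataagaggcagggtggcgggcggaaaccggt
The elements GAAAGTTCCAGAA and TTCTGGAAGGTTC began 230 and 55 bases upstream of the start. The summit lay 239 bases upstream, close to the first.

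DNAJB1, the J-domain partner of HSP70, had a peak at its upstream start and another at its downstream starts. At the upstream start on chromosome 19 the summit at 14529701 lay 430 bp upstream and 107 bp from a start of TECR, which encodes an enzyme of very-long-chain fatty acid elongation and overlaps DNAJB1. Its fold was 10.5 (8.11 to 13.4). At the pair of downstream starts the summit at 14518847 lay 450 bp upstream of the nearer, with a fold of 6.07 (4.30 to 8.34), an interval that overlapped the first. The annotated span of 45623 bp held 7 of the 12 summits of the locus. This span reached 14560391, upstream of the first listed start at 14529271, and no start was listed at that end. A summit 9017 bp beyond the 3′ end had a fold of 9.52 (7.25 to 12.3), the highest of any peak of the group over 1 kb from a coding start. A start or end of GIPC1, 9625 bp away, was nearer to that summit than any listed DNAJB1 start (12185 bp).

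The stretch upstream of the first of the downstream DNAJB1 starts is shown for its heat shock repeats and the E-box variant, in capitals (minus strand, chr19:14518398-14518647).
DNAJB1: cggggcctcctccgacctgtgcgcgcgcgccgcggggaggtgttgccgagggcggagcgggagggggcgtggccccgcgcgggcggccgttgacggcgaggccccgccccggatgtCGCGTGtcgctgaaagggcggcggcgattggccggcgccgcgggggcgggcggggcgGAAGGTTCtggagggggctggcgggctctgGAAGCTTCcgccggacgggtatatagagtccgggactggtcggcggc
The repeats GAAGGTTC and GAAGCTTC began 77 and 47 bases upstream of the start, and CGCGTG began 134 bases upstream.

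**Figure D3:**
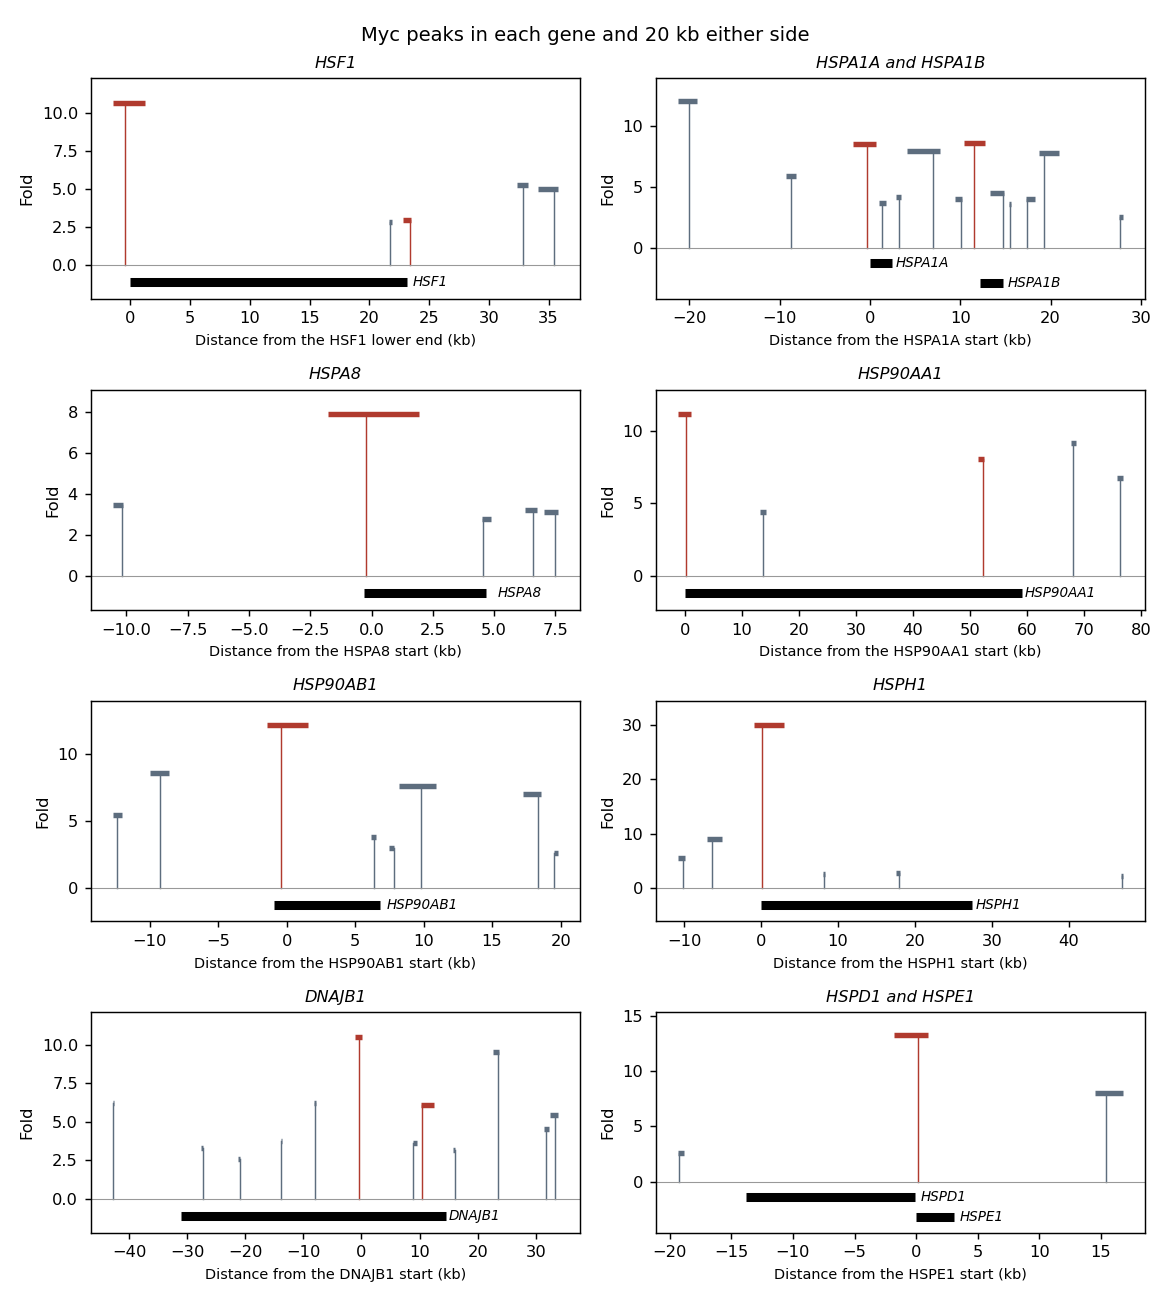
Myc peaks in and within 20 kb of each gene, by distance from the listed start nearest the start peak (horizontal, kb, in the direction of transcription; lower end for HSF1) and fold (vertical). Bars give the peak interval, thin lines the summit, red a summit within 1 kb of a listed start of a member, blue-grey the others, and black blocks the gene spans. In all panels but that of HSPA1A and HSPA1B the highest bar is red.

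Motifs were counted in the 15 RefSeq start windows of 9 members (HSF1 not included) and in all 22199 windows of protein-coding genes, on both strands. A full heat shock element, GAANNTTC followed after any 2 bases by GAA or the reverse complement of this, was present in 4 windows, those of HSPA8, HSPD1 (its downstream start), HSP90AA1 (its downstream start) and HSP90AB1 (its last start), and in 0.405% of all windows. The shorter repeat GAANNTTC, which the full element contains, was in 8 windows and in 5.67% of all, and TTCNNGAA, also contained in it, in 4 and in 6.73%. These shorter patterns were added after the sequences were seen. The E-box variant CACGCG was in 5 windows and in 14.3% of all, and CATGTG in 1 and in 8.93%. CCAAT was in 7 windows and in 34.7% of all. The GC box GGGCGG was in 14 windows and in 56.3% of all. Windows of HSPD1 and HSPE1 share bases, so the windows are not independent. A match is a description of letters and no evidence of a bound factor. The HSPH1 window had no match to any pattern searched, and that says only that these letters are not in this window.

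Away from coding starts the values were near those of the whole list. Of the 57 summits, 37 (64.9%) lay over 1 kb from any coding start, against 75.2% of all peaks. Their median fold was 3.75, against 3.66 for all 35344 such peaks. A fold above 7.89, the median of start peaks, was found in 4 of them (10.8%), against 8.45% of all. These were the peaks named above near DNAJB1 (9.52), HSP90AA1 (9.14), HSPH1 (8.93) and HSP90AB1 (8.53). The peak at 31834801 downstream of HSPA1B, with a fold of 7.71 (5.69 to 10.2), lay 115 bp from the start of SNHG32, a noncoding host gene of small nucleolar RNAs. A summit in the span or within 20 kb was present for 10 of 10 genes, but also for 79.7% of all protein-coding genes. At the edge of the 20 kb rule, the outermost summits counted lay 19988, 19470 and 18806 bp from a span, with folds of 12.04, 2.13 and 5.42. The nearest ones not counted lay 20903, 21085 and 22409 bp away, with folds of 4.57, 3.05 and 5.51.

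Other chaperone genes, in 6 lists of 106 matched genes, had a start peak in 89 cases (84.0%, Wilson 95% interval 75.8 to 89.7), with a median fold of 9.14. Of all protein-coding genes 57.3% had one, with a median of 7.89. All 12 other genes of the HSP70 and HSP110 families had one, led by HSPA9, the mitochondrial HSP70, at 22.9 (19.5 to 26.9), HSPA4L at 14.9 (12.1 to 18.3) and HYOU1, the HSP110 of the endoplasmic reticulum, at 11.2 (9.07 to 13.7). The HSPA1L entry is the peak of HSPA1A. All 18 HSP90 paralogues and co-chaperones had one, with a median of 12.2, led by SUGT1 at 25.6 (22.4 to 29.2), AHSA1, which stimulates the HSP90 ATPase, at 19.4 (16.0 to 23.2) and HSP90B1 at 18.5 (15.3 to 22.3). All 11 HSP70 co-chaperones and exchange factors had one, with BAG6 at 14.4, BAG2 at 14.004 and BAG1 at 11.1. HSPH1, at 29.9, stood above the highest fold in these lists, 25.9 (22.1 to 30.3) at the mitochondrial J-protein gene DNAJA3, with overlapping intervals.

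Of the J-domain genes 38 of 43 (88.4%) had a start peak, against 57.3% of all protein-coding genes. The next highest after DNAJA3 were DNAJC5 (19.9) and DNAJB9 (17.6). DNAJB7, DNAJB8, DNAJB13, DNAJC6 and DNAJC15 had none within 1 kb. Of the heat shock factors and their regulators 9 of 13 had one, led by the mitochondrial protease gene LONP1 (13.02), the collagen chaperone gene SERPINH1 (10.7) and CLPB (10.5). HSF5, HSFX1, HSFY1 and CLPP had none. HSFY1 lies on chromosome Y, where the whole list has only 3 peaks, and its nearest summit was 4346886 bp away. Its lack of a peak therefore says little, and whether the line carries chromosome Y was not measured. HSF2, named after its value was seen, had the lowest fold of the 6 lists, 2.71 (1.76 to 4.01), which lies below the interval of the HSF1 peak (8.44 to 13.2). That HSF1 peak is the one that cannot be separated from BOP1. At the other end of HSF1 the fold was 2.95 (1.79 to 4.63), which overlapped the HSF2 interval. The small heat shock proteins had the lowest share, with a peak at 1 of 9 genes, HSPB1, at 5.08 (3.65 to 6.90). For the other 8 the nearest summit was 1375 to 489202 bp away. The lists were compared by counts and medians only, and their differences were not tested.

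**Figure D4:**
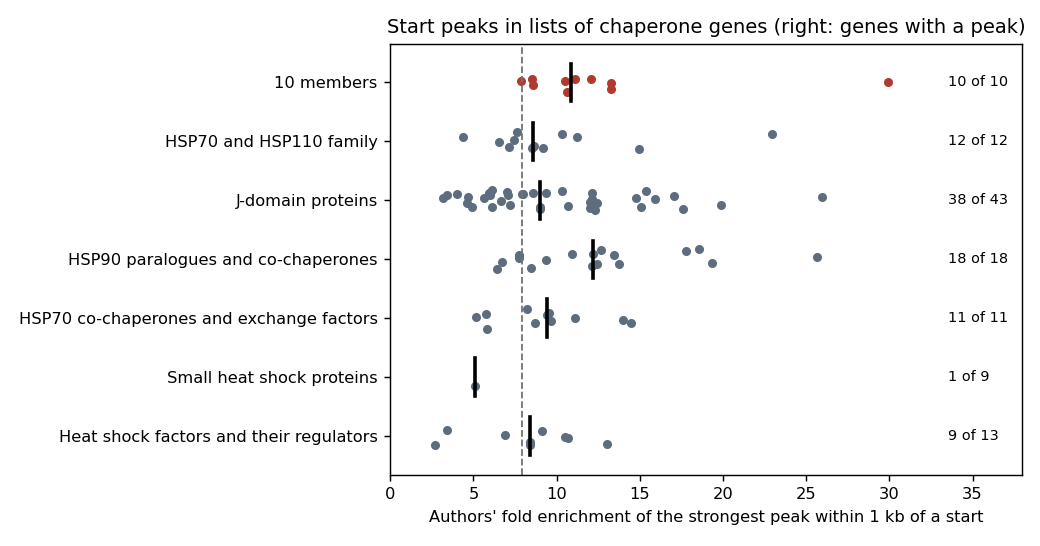
Fold of the strongest start peak (horizontal) for each gene with one, by list; black ticks are medians, the dashed line the median of all genes with a start peak (7.89), and the figures at the right the genes with a start peak. The small heat shock proteins have 1 point of 9 genes, and HSPH1 is the rightmost point.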

How the data were processed

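The deposited peak list is in narrowPeak format. Per the submitters' processing notes, the build was hg38 and the tools included BWA 0.7.15, Picard 2.19.0 and MACS2 2.1.2. Which control was used, how the replicates were joined and how reads with several alignments were treated is not stated in the sources at hand. The authors' fold enrichment at the summit is a ratio, and the deposited −log10 p and −log10 q belong to the same summit. From these, a whole-number pileup was solved for each peak with Python 3.11.15 and SciPy 1.17.1, assuming fold = (pileup + 1)/(control + 1) and a Poisson tail. For 47013 of 47016 nuclear peaks the listed −log10 p was returned within 0.001, and the procedure was tested on simulated data.

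Spans, starts and sequences came from RefSeq (GRCh38.p14). Starts with strand were given for 15842 protein-coding genes, and either annotated end was used for the other 4195. Every count across genes was made over all 20037. The upstream stretches of HSPA1A and HSPA1B were aligned with Biopython 1.88. No test over samples was possible, and no list was tested. The Wilson intervals treat genes as independent draws, although some genes share a peak and the lists were chosen. They therefore test no difference between lists or against all genes. The members, gene lists and motifs were chosen with earlier results of these data known. The text names all members, the 3 highest folds in each other list, and the genes without a peak where they number 5 or fewer, and coding genes whose start lies within 1 kb of a member peak. HSF2 and the neighbours in the loci were named after their values were seen. DNAJC20 and AHSA2P did not match a protein-coding symbol.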

Additional observations from a re-analysis of the deposited data

How the results depend on the processing

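Of 33 alternatives, 29 left counts within 1.5 times and the median fold within the interval of its peak. These were windows of 500 bp, 2 kb and 5 kb, either annotated end, a −log10 q of at least 10 for start peaks, 10 and 50 kb around the genes, the strongest summit of each interval, which changed no value, and, for the counts of other chaperone genes and of all genes, the exclusion of shared peaks given below. The strongest-summit setting returned the main values exactly, so its share of the 29 says nothing about robustness. With 500 bp or either annotated end, 9 of 10 members had a start peak. The number of peaks in the loci was 57, but 20 in the gene spans alone and 31 with a −log10 q of at least 10. Without peaks within 1 kb of the starts or ends of 2 or more coding genes, an alternative added after the data were seen, 6 of 10 members had a start peak, with a median fold of 8.30 in place of 10.6. The same exclusion left 70 of 106 other chaperone genes and 9009 of 20037 protein-coding genes (45.0%) with one. HSF1, HSPA1A, HSPD1 and HSPE1 then had none, and HSP90AA1 and DNAJB1 were left with the peaks at their downstream starts. No paired analysis was possible because the list holds 1 value per peak and none per library, and for the same reason no library could be left out. Depth limits the weak peaks most, since folds near 2.6 rest on 15 to 17 fragments.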

Other observations

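Peaks at starts or ends of neighbouring genes made up a part of the loci. Of the 20 summits within 1 kb of a coding start, 8 lay only at genes outside the group, with a median fold of 6.62 and a range from 4.99 to 12.04. The strongest was that of VARS1, followed by MOB4 (8.05, 6.00 to 10.6) beside HSPE1 and SLC35B2 (7.55, 5.55 to 10.0) beside HSP90AB1. LSM2, an RNA-binding protein gene below HSPA1A, had 5.91 (4.35 to 7.86). At NDUFB7, a gene of respiratory complex I, the fold was 6.24 (4.44 to 8.53), and at GIPC1, on the other side of DNAJB1, it was 5.42 (3.76 to 7.58). A peak within 1 kb of at least 2 coding genes was found for 5 of the 9 distinct member start peaks, against 13.4% of the 10203 distinct start peaks of all genes. The partners were BOP1, HSPA1L, WDR20, TECR and, for HSPD1 and HSPE1, each other and HSPE1-MOB4.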
